A study of Mus musculus with 2 samples.

Results

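The genes described here are the interferons Ifng and Ifnb1, the receptor chains Ifngr1, Ifngr2, Ifnar1 and Ifnar2 that bind them, and the Janus kinases Jak1, Jak2 and Tyk2 that carry their signal into the cell. They were taken by gene symbol from the array annotation, which gave 9 genes with 15 probes among 56605 probes in all. The cells were splenic monocytes of ICR mice, an outbred stock, isolated on a cell sorter by CD11b and Ly6C staining 8 weeks after the operation. One group had a sham operation, and the other had a 5/6 nephrectomy (5/6Nx), a model of chronic kidney disease in which only a small remnant of kidney is left. Each group is 1 RNA sample on 1 array of a single-colour Agilent design, and the labels do not say how many mice it came from. Nothing was tested across animals, so every difference is between 2 arrays and has no replicate check.

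Interferons are secreted proteins that put cells into an antiviral and inflammatory state. Interferon gamma, the type II interferon, is made mainly by T cells and NK cells and binds a receptor of Ifngr1 and Ifngr2 chains, to which Jak1 and Jak2 are attached. Interferon beta and the interferon alpha proteins are type I interferons and bind Ifnar1 and Ifnar2, to which Tyk2 and Jak1 are attached. The kinases phosphorylate STAT proteins, which enter the nucleus and switch on target genes, and in monocytes and macrophages interferon gamma is known for raising antigen presentation and the killing of microbes.

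Ifng and the kinase Jak2 differed widely between the arrays, whereas the receptor chains did not. Ifnb1 was dim, at 69.8 on the 5/6Nx array, and another background correction put it under 2-fold, at 1.92-fold. The 5/6Nx array was at least 713-fold above sham for Ifng, at least 4.41-fold for Ifnb1 and 8.80-fold for Jak2. Tyk2 was 1.82-fold higher, and Jak1 and all 4 receptor chains were less than 2-fold apart. Of the 7 members measured on both arrays, 1 was higher by 2-fold or more, none was lower by that much and 6 were under 2-fold. Across all 15715 genes with a measurement on each array, the shares were 12.2% higher, 11.0% lower and 23.2% apart in either direction, so the members' count does not stand out from that of all genes. Counting genes seen on 1 array by their bound, 3 of the 9 members and 14.1% of 17730 genes were higher by 2-fold or more.

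Values are given as the processed intensity of a probe on each array and as a log2 difference, 5/6Nx minus sham, after each array was set to its 75th percentile of intensity (439.2 on the sham array, 544.5 on the 5/6Nx array). A fold is 2 raised to that difference. A probe counts as measured where the scanner software called it well above background. Where this held on 1 array only, the fold is a bound set against the dimmest probe that still passed on the other array (12.8 for sham, a mean over repeat spots), or against the probe's own reading there if that is higher. The share of spots that passed was 63.0% for sham and 67.0% for 5/6Nx. The median difference of all measured genes was -0.12. Spike-in scaling adds 0.43 to every difference and median scaling takes off 0.15. Scaled by spike-ins, 79.5% of the genes at least 2-fold apart were higher, against 52.8% by the 75th percentile and 40.7% by the median. Genes of the sorted cell type gave strong signals in each sample. The CD11b gene Itgam read 33016 in the sham sample and 31995 in the 5/6Nx sample, Csf1r, the gene for the monocyte growth factor receptor, 70611 and 72856, and the lysozyme gene Lyz2 324209 and 280049. The sort antigen genes Ly6c1 and Ly6c2 differed by 1.98 each, and their probes may not separate these paralogs.

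**Figure D1:**
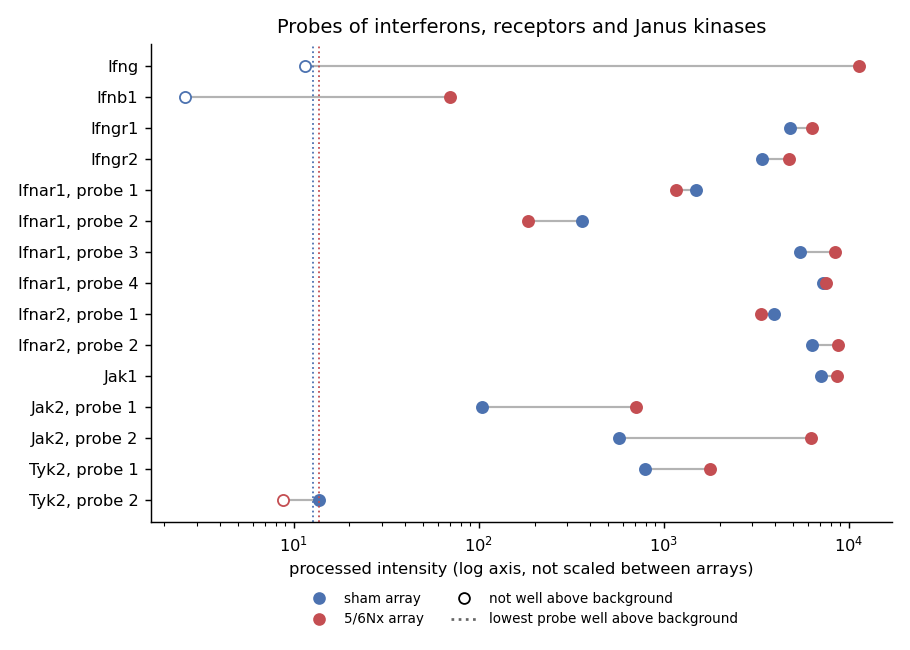
Processed intensity (log axis) of each of the 15 probes on the sham array (blue) and the 5/6Nx array (red), with open circles for probes not well above background and dotted lines at the lowest probe well above background. Ifng runs from 11.5 to 11298 and the probes of Jak2 are parted by a wide gap, while most receptor probes lie close together.

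Ifng encodes interferon gamma, and its probe lies at chromosome 10, 117882841 to 117882900 (mm9). The sham reading was 11.5, too dim to pass, and the 5/6Nx reading was 11298. The signal was thus near background after the sham operation and strong after 5/6 nephrectomy. The bound of at least 713-fold was reached or passed by 7 genes, Ifng included, among 1485 genes detected after 5/6Nx alone. Scaled by the median the bound was 643-fold and by spike-ins 964-fold. In the authors' deposited table the probe read 14.1 for sham and 10522 for 5/6Nx. With normexp, a background correction that adds an offset and so shrinks folds of dim probes, the fold was 140. In a bulk sample, fewer cells of a type and less RNA per cell cannot be told apart.

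Ifnb1 encodes interferon beta, and its probe lies on the reverse strand of chromosome 4 at 88168023 to 88168082 (mm9). The probe read 2.57 on the sham array, a surrogate value that the software gives to spots at background, and 69.8 on the 5/6Nx array. It was therefore detected on the 5/6Nx array alone, and weakly. The bound of at least 4.41-fold became 3.97-fold with median scaling and 5.95-fold with spike-in scaling. Among genes seen on the 5/6Nx array only, 308 had a bound as high. With normexp the 2 arrays were 1.92-fold apart, under the 2-fold mark.

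The other interferon genes were close to even or not seen. Of 19 other interferons, 3 had no probe and 4 were not well above background on either array. All 11 that were measured were under 2-fold apart, with a median of -0.24, or 0.20 with spike-in scaling. Ifna15, a neighbour of Ifnb1 on chromosome 4, passed after 5/6Nx alone, at 31.8 against 10.5, with a bound of 2.01-fold. Median scaling takes this bound under 2-fold, and with normexp the difference was 0.11. The measured values were low, between 16.8 and 295.4 on the 5/6Nx array, and the interferon alpha genes are so alike that a probe may read several of them.

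The promoters of the 3 genes that were higher are shown because these members were the ones past 2-fold. Each line gives the 250 bases before the RefSeq start site on GRCm38.p6, in the direction of the gene, with capitals for a match to a motif searched on both strands. These motifs were GAS, an element bound by STAT dimers, as TTCNNNGAA, the ISRE core, the element of the type I interferon response, as GAAA and GAAA with any 2 bases between, and an NF-kappaB element as GGGA and TTCC with any 2 bases between.
Ifng, chr10:118440796-118441045, + strand: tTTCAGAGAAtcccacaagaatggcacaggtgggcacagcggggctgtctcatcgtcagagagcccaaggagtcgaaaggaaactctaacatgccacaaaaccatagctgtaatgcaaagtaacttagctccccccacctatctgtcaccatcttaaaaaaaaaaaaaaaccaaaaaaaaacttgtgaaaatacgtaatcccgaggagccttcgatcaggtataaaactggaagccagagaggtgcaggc
Ifnb1, chr4:88522795-88523044, - strand: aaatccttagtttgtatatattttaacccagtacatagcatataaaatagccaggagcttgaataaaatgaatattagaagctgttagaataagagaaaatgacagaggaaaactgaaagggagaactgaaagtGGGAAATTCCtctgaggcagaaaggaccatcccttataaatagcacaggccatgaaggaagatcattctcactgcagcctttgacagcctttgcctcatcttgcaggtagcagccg
Jak2, chr19:29251553-29251802, + strand: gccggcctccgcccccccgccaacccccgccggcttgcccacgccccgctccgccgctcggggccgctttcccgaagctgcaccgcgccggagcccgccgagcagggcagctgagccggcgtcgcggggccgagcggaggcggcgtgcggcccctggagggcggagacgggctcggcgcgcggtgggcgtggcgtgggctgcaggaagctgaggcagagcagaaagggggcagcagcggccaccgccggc

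All 9 members had a RefSeq promoter in the table. The Ifng window held a GAS match that begins 249 bases before the start, and the Ifnb1 window an NF-kappaB match that begins 116 bases before it. No match to these letters was found in the Jak2 window, which is 80.8% G and C against 45.2% for Ifng and 39.6% for Ifnb1. Of the other members, Ifnar2 had a GAS match and Ifngr2 an NF-kappaB match, though neither gene was 2-fold apart. None of the 9 windows held the ISRE core letters exactly as searched, and looser forms of that element were not searched. Among 32851 windows of the same length, 7.02% held a GAS match, 2.98% an ISRE core and 1.21% the NF-kappaB letters.

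Ifngr1, the ligand-binding chain for interferon gamma, read 4804 in the sham sample and 6286 in the 5/6Nx sample (chromosome 10, 19329923 to 19329982, mm9). Its difference was 0.08, and it changed sign with median scaling at -0.07. Ifngr2, the chain that brings in Jak2, read 3402 and 4773 (chromosome 16, 91563982 to 91564041), a difference of 0.18. Both chains thus gave a strong signal on either array, and spike-in scaling put them at 0.51 and 0.61.

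Ifnar1, the chain that brings in Tyk2, has 4 probes, and they did not give the same answer. The 4th in the plot of intensities represents the gene (chromosome 16, 91508662 to 91508721, mm9). It read 7263 in the sham sample and 7490 in the 5/6Nx sample, a difference of -0.27, which turned to 0.17 with spike-in scaling and 0.03 with loess. Probe 1, at 91507039 to 91507098, read 1484 and 1157, a difference of -0.67. Probe 2 read 359.1 and 185.4, a difference of -1.26, or 2.40-fold lower on the 5/6Nx array, and -0.83 with spike-in scaling. Probe 3 lies upstream at 91491902 to 91491961 and was designed on a different transcript of the gene. This one read 5443 and 8436, a difference of 0.32 in the other direction.

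The probes of Ifnar1, probe 3 included, spanned a range of 1.59 in log2 units. Among 613 genes with 4 measured probes, the median range was 0.71, and 9.14% had a range as wide. The mean over the 4 probes was -0.47, so the gene stayed under 2-fold by this summary too. Probe 2 covers 1587 bases of the genome with 60 bases of sequence, from 91503764 to 91505350, so it crosses at least 1 intron. It is shown as the Ifnar1 probe with the largest difference, beside the probe that represents Ifnar2 and the probe of Jak2 that gave the smaller of its differences, since these genes had probes that disagreed in size or sign.
Ifnar1, probe 2: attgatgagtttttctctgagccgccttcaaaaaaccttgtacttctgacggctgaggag
Ifnar2, probe 2: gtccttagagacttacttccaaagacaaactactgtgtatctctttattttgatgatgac
Jak2, probe 1: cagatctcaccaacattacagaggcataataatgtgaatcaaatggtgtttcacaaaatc

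Ifnar2, the chain that binds type I interferon most tightly, has 2 probes that went opposite ways. Probe 2 (chromosome 16, 91394044 to 91394103, mm9) represents the gene and read 6295 in the sham sample and 8733 in the 5/6Nx sample, a difference of 0.16. Probe 1, downstream at 91405479 to 91405538, read 3921 and 3333, a difference of -0.54. The mean over both probes was -0.19, so the sign of this gene rests on the choice of probe. Their range of 0.71 compares with a median range of 0.29 over 4222 genes with 2 measured probes, of which 20.5% had a range as wide. Ifnar2 is known to give both a membrane form and a soluble form through different transcripts, and which forms each probe reads was not tested.

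**Figure D2:**
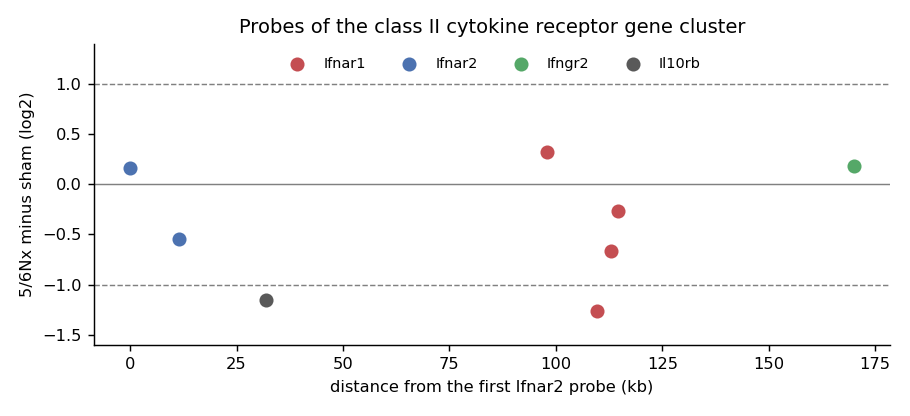
Log2 difference, 5/6Nx minus sham, for each probe of Ifnar2, Il10rb, Ifnar1 and Ifngr2, placed by distance in kb from the first Ifnar2 probe. Il10rb at -1.16 and probe 2 of Ifnar1 at -1.26 are below the dashed line at 2-fold, and the single Ifngr2 probe is at 0.18.

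Ifnar2, Ifnar1 and Ifngr2 lie side by side on chromosome 16 with Il10rb, a shared chain of the receptors for interleukin-10, interleukin-22 and interferon lambda. Their probes fall within 169.9 kb. Il10rb read 17045 in the sham sample and 9480 in the 5/6Nx sample, a difference of -1.16, which was under 2-fold with spike-in scaling (-0.72), loess (-0.84) and quantile normalization (-0.95). With the 75th percentile Il10rb was thus past 2-fold on the lower side, unlike the interferon receptor genes around it by their representing probes. Tmem50b, the next gene along, differed by -0.40.

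Jak1, the kinase shared by both receptor types, read 7057 in the sham sample and 8634 in the 5/6Nx sample (chromosome 4, 100825094 to 100825153, reverse strand, mm9). Its difference was -0.02. The sign turned under 5 of 12 alternatives, with values between -0.17 and 0.41. Jak1 thus stayed far from 2-fold in each of them.

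Jak2, the kinase attached to Ifngr2, was the member measured on both arrays with a difference past 2-fold. Probe 2 (chromosome 19, 29386381 to 29386440, mm9) represents the gene and read 574.6 in the sham sample and 6267 in the 5/6Nx sample. Probe 1, in the part of the gene shown above at 29363211 to 29363270, read 103.7 and 709.3. Both probes were higher on the 5/6Nx array, by 3.14 and 2.46 in log2 units, and with normexp by 3.05 and 1.93. The range between them, 0.67, was matched or passed by 22.0% of genes with 2 measured probes. Upward differences as large as that of Jak2 were found in 363 of 15715 genes, or 2.31%. The difference stayed past 2-fold in all 12 alternatives, from 2.80 to 3.57.

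Tyk2, the kinase attached to Ifnar1, lay just under the 2-fold mark. Probe 1 (chromosome 9, 20909321 to 20909380, reverse strand, mm9) read 790.7 in the sham sample and 1786 in the 5/6Nx sample. This is a difference of 0.87, and 14.6% of all measured genes were as high. It passed 2-fold with spike-in scaling at 1.30 and with loess at 1.07, and stayed below it in the other 10 alternatives. Probe 2, on another transcript at 20927943 to 20928002, read 13.8 in the sham sample and 8.73 in the 5/6Nx sample, where it was not well above background.

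**Figure D3:**
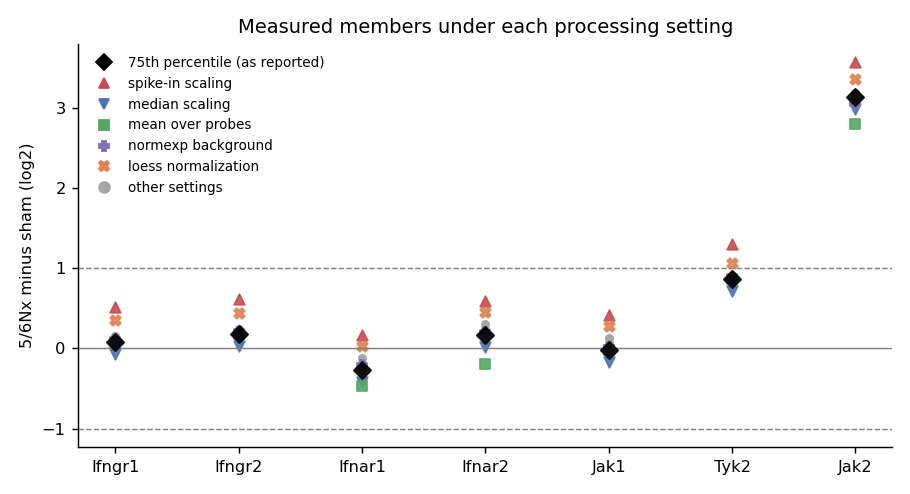
Log2 difference, 5/6Nx minus sham, of the 7 members measured on both arrays under the 75th percentile (black diamonds) and the 12 alternatives, with dashed lines at 2-fold. Jak2 stays between 2.80 and 3.57, Tyk2 crosses the upper line with spike-in scaling and loess, and the other 5 genes stay between the lines.

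Jak3, the Janus kinase of lymphocytes that works with the common gamma chain Il2rg, read 251.2 in the sham sample and 961.7 in the 5/6Nx sample. It differed by 1.63, with 3 probes from 0.50 to 2.20. Il2rg differed by 3.07. In the family of 4 kinases, Jak2 and Jak3 were thus past 2-fold, Tyk2 near it and Jak1 not.

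Other receptors that use Janus kinases were split between higher and near even, with few lower. Of 31 measured genes in this list, Jak3 included, 11 were higher by 2-fold or more, 2 lower and 18 between, and the median was 0.68. Over all measured genes 12.2% were higher and 11.0% lower. With normexp 7 of the 11 higher genes in the list stayed past 2-fold. Il2rb, a chain of the receptors for interleukin-2 and interleukin-15 and a marker of NK cells, differed by 7.66, Il12rb1, a chain of the interleukin-12 receptor, by 5.22 and Il27ra by 5.11. Il23r was at least 20.9-fold higher and Ifnlr1, the receptor for interferon lambda, at least 3.34-fold higher. On the lower side were Lepr, the leptin receptor, at -1.24 and Il10rb at -1.16, with Lifr at least 4.12-fold lower. Spike-in scaling put Lepr at -0.81, under 2-fold, and with normexp Ifnlr1 at 0.54 and Lifr at -0.79 were under it too.

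The signal carriers and brakes downstream of the kinases were higher or near even. Of 30 measured genes 16 were higher by 2-fold or more and none lower, against 12.2% and 11.0% of all measured genes. The median of the list was 1.25. Stat2 and Irf9, which act together in the type I response, differed by 3.42 and 1.86. Usp18, which blocks Ifnar2, differed by 7.26, the cytokine-induced brake Cish by 6.26, Socs1, which blocks Janus kinases, by 6.10 and Socs3 by 5.10. The phosphatases Ptpn1, Ptpn2 and Ptpn6, which remove phosphate from kinases or STATs, differed by 1.43, 1.13 and 1.59. Pias1 to Pias4, inhibitors of STATs, lay between -0.55 and -0.26.

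**Figure D4:**
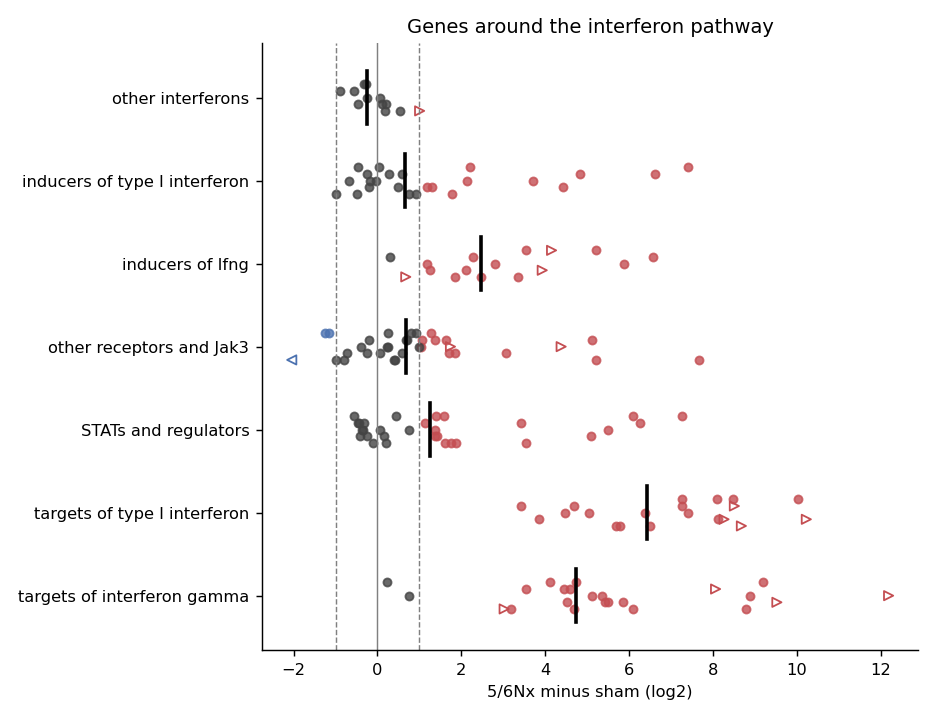
Log2 difference, 5/6Nx minus sham, of the genes in 7 lists around the pathway. Points are genes measured on both arrays (red at least 2-fold higher, blue at least 2-fold lower, grey between), open triangles are bounds of genes seen on 1 array, and black bars are the medians of measured genes, which run from -0.24 for other interferons to 6.44 for targets of type I interferon.

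Genes that switch on type I interferon were split. Of 24 measured genes 10 were higher by 2-fold or more, none was lower and 14 lay between. This compares with 12.2% higher and 11.0% lower among all measured genes. The median of the list was 0.66. Irf7, the factor that drives interferon alpha genes and is itself a target of interferon, differed by 7.41, the nucleic acid sensor Zbp1 by 6.63, and the RNA sensors Ifih1 and Ddx58 by 4.83 and 4.42. Irf3, the factor that acts first on Ifnb1, differed by -0.18, the endosomal receptors Tlr7 and Tlr9 by -0.24 and -0.46, and the adaptor Mavs by -0.98. The members of this list past 2-fold are in part interferon-induced genes themselves.

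Genes tied to the control of Ifng expression were mostly higher. Of 13 measured genes 12 were higher by 2-fold or more and none lower, against 12.2% and 11.0% of all measured genes. The median of the list was 2.46, and 3 more were detected after 5/6Nx alone. Of all genes, 1485 were seen on the 5/6Nx array only and 419 on the sham array only. With normexp 9 of the 12 stayed past 2-fold, and Il12b at 0.90, Il27 at 0.93 and Il12rb2 at 0.52 did not. Il18r1, a chain of the interleukin-18 receptor, differed by 6.57, Il12a, a subunit of interleukin-12, by 5.89, Il12rb1 by 5.22 and Stat4, which carries the interleukin-12 signal, by 3.54. Tbx21, the factor T-bet that drives Ifng in lymphocytes, read 124.2 and 1575, a difference of 3.35. Il18rap was at least 17.8-fold higher and Eomes at least 15.3-fold higher. Several of these genes are expressed mainly by T cells and NK cells.

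Targets of both interferon types were higher, beside 12.2% of all measured genes higher by 2-fold or more and 11.0% lower. Of 16 measured targets of type I interferon all 16 were higher by 2-fold or more, the median was 6.44, and 4 more were detected after 5/6Nx alone. Oasl1, an antiviral protein related to the OAS enzymes, read 33.5 in sham and 43485 in 5/6Nx, a difference of 10.03. Ifit1, which binds viral RNA, differed by 8.49, the viperin gene Rsad2 by 8.13 and the antiviral GTPase gene Mx1 by 8.11, while Ifit3 was at least 1201-fold higher. Of 19 measured targets of interferon gamma 17 were higher by 2-fold or more and none lower, the median was 4.74, and 4 more were detected after 5/6Nx alone. The GTPase genes Gbp2 and Gbp3 differed by 9.20 and 8.80, and Nos2, the inducible nitric oxide synthase of activated macrophages, by 8.90. The chemokine gene Cxcl10 was at least 4682-fold higher and Gbp4 at least 738-fold higher. Irf8, at 0.23, was under 2-fold. Gbp5 was under it by its brightest probe, at 0.76, whereas its other measured probe differed by 8.31. Many of these genes answer to both interferon types, so the lists do not separate the types. Cd274, the checkpoint ligand PD-L1 and a target of interferon gamma, differed by 3.19.

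Markers of lymphocytes, the cells known to make interferon gamma, were higher on the array where Ifng was high. Shares over all measured genes were 12.2% higher and 11.0% lower. Another 1485 genes were seen on the 5/6Nx array only, and 419 on the sham array only. Of 14 measured T cell markers 12 were higher by 2-fold or more and none lower, and 2 more, Cd8a and Themis, were not well above background on the sham array. Their summed intensity over measured genes was 3582 in the sham sample and 46484 in the 5/6Nx sample. Cd3g differed by 6.31 and Cd3d by 6.19, whereas Cd4 differed by 0.87 with its brightest probe and 1.52 with another, and Cd247 by -0.64. All 4 measured NK cell markers were higher, and the other 9 of 13 were not well above background on the sham array. Their summed intensity over measured genes was 208 and 37251. Gzma differed by 9.55, Nkg7 was at least 471-fold higher and Gzmb at least 379-fold higher. The part of these cells in the values of Ifng, Jak3, the genes tied to Ifng control and the receptor list was not tested.

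Markers of other cells went less far or both ways, beside 12.2% of all measured genes higher by 2-fold or more and 11.0% lower. Among 7 measured B cell markers 2 were higher, led by Cd79b at 1.92, with a median of 0.86, and with normexp 1 of these stayed past 2-fold. Plasmacytoid dendritic cells, known as strong makers of type I interferon, had a median of 0.02 over 9 measured markers, and Siglech, their surface lectin, read 101444 in the sham sample and 109449 in the 5/6Nx sample. Past 2-fold in this list were Bst2, also an interferon target, at 5.70 and Lair1 at 3.12, and Cox6a2, detected after 5/6Nx alone, was at least 33.1-fold higher. Monocyte markers had 5 of 14 higher and 3 lower, F13a1 among the lower ones at -4.40, with a median of -0.11. Of the 7 measured markers of conventional dendritic cells 4 were higher by 2-fold or more and 1 lower, with a median of 1.63. With normexp 3 of these 4 stayed past 2-fold, and the median was 0.61. Among 7 neutrophil markers 3 were higher, led by Lcn2 at 7.31, and 1 lower, Mmp8 at -3.97, with a median of 0.51. Of 11 red pulp macrophage markers 3 were higher, led by Spic at 5.53, and 6 lower, led by Trf at -4.08. Their median was -1.69, or -0.71 with bounds added. Of 5 platelet markers 1 was higher, Clec1b at 3.59, and 3 lower, led by Pf4 at -4.31, with a median of -2.62. Among 3 erythroid markers 1 was higher and none lower, with a median of -0.68. Vcam1 of the red pulp list was at least 74.3-fold higher and Gp6 of the platelet list at least 144-fold higher.

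**Figure D5:**
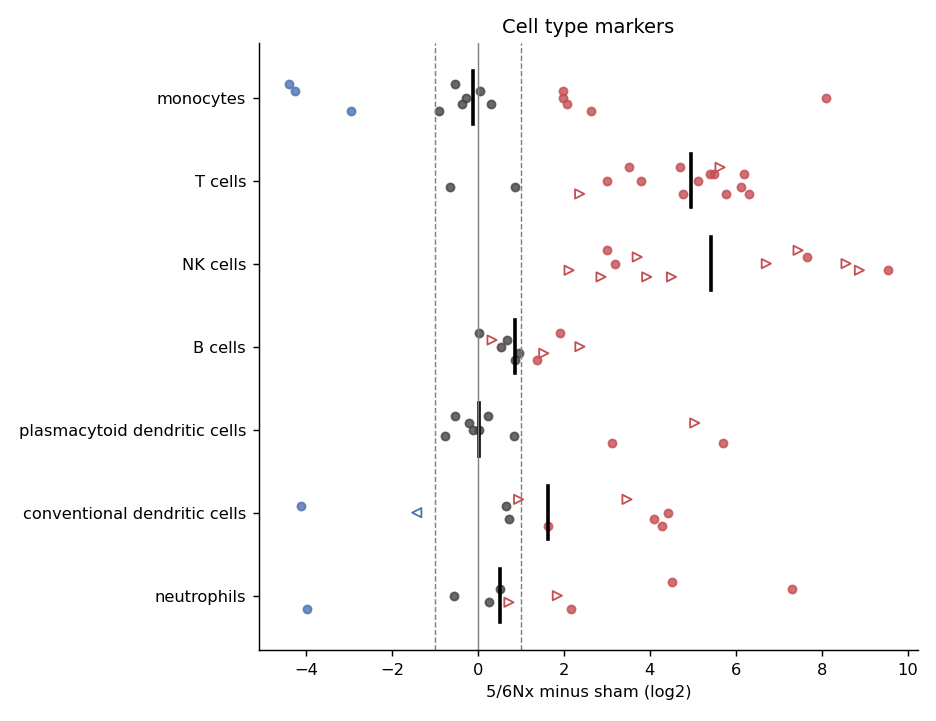
Log2 difference, 5/6Nx minus sham, of marker genes of 7 cell types, drawn as in the plot of pathway lists. T cell and NK cell markers lie mostly to the right of the 2-fold line, with medians of 4.96 and 5.43, and the medians for monocytes and plasmacytoid dendritic cells are -0.11 and 0.02.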

How the data were processed

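Splenic monocytes were profiled on 2 single-colour arrays, 1 sham and 1 5/6Nx. Each scanner file as deposited gives processed spot intensity on a linear scale, made with Agilent Feature Extraction (10.7.1.1 per the file headers, 9.5.1.1 per the submitters' processing notes), with a spatial detrend within each array per the file headers and not scaled between arrays. The authors' deposited table holds linear intensity values of the same probes, and no source used here states how arrays were normalized. It correlated with the scanner values at r = 0.9996 and 0.9998 in log2 units, across 52143 probes.

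Outlier spots were dropped (41 in sham and 47 in 5/6Nx), none was saturated, repeat spots were averaged per probe, and log2 intensity was centred on the array's 75th percentile. Where a gene had several measured probes, the brightest stood for it. Probes were named by accession, symbol or synonym in a RefSeq table (GRCm38.p6), used for names, neighbours and promoters, and 12867 probes that could not be matched were left out of counts of genes. Probe positions are on mm9 as in the files, and exon or UTR annotation was not used here. Repeat spots of a probe had an SD of 0.0594 for a log2 difference, over 283 probes with at least 8 spots. It leaves out sorting, labelling and the animals, and the number of arrays limits the precision.

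The members and lists were chosen with earlier results of these data known. The rule for named genes takes all 9 members, then from each list up to 4 genes in each direction with the largest difference past 2-fold and up to 2 bounds, plus Jak3, Stat2, Irf9, Socs1 and the sort antigens, and some genes it takes are not reported here. Neighbouring genes, members of lists under 2-fold, and the genes Il2rg, Il12rb1, Il12b, Il12rb2, Il27, Ptpn1, Ptpn2, Ptpn6, Stat4, Tbx21, Cd274, Csf1r and Lyz2, where the rule did not take them, were named after their values were seen. Alternatives were normexp (offset 50), median, spike-in, quantile and loess scaling, the authors' table, other filters on dim probes, the mean over probes, outlier spots kept and bounds added. The scaling and the averaging of spots were tested on simulated data, but the bounds and the choice of the brightest probe were not. Python 3.11.15, R 4.3.3 and limma 3.58.1 were used.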

Additional observations from a re-analysis of the deposited data

How the results depend on the processing

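With 1 array per group no p-value could be computed, and dim signals such as those of Ifnb1 depend on the background correction. Of the members, 2 rather than 1 were at least 2-fold higher with spike-in scaling, loess and a less strict detection filter, and 3 with no filter and with bounds added. None was at least 2-fold lower in any of the 12 alternatives. Among all genes the number at least 2-fold higher, 1923 as reported, was 1164 with normexp, 3327 with spike-in scaling, 3679 without a filter and 708 among genes above median brightness. The number lower, 1721 as reported, was 857 with spike-in scaling, 2700 without a filter and 911 among genes above median brightness. The median of platelet markers turned to 0.85 without a filter and 0.29 with bounds added, and that of conventional dendritic cell markers to -0.0137 among genes above median brightness, where 2 genes were left. There the medians of erythroid and neutrophil markers also changed sign, to 1.01 and -0.15, and the neutrophil median was 1.55 with the less strict filter. The fewer or added genes of these filters are part of their construction, and otherwise the cause was not tested. No paired analysis was possible because each group has 1 array.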

Other observations

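Genes next to the members in RefSeq order, 2 on each side, were read after the members' values were seen. Rcl1, which neighbours Jak2 and encodes a protein of ribosome assembly, read 336.4 in the sham sample and 2441 in the 5/6Nx sample, a difference of 2.55 (2.40 with normexp). Insl6, on the other side of Jak2, differed by -0.57. Tnfaip3, the NF-kappaB brake A20 near Ifngr1, read 966.3 and 11093, a difference of 3.21, while Ifngr1 differed by 0.08. Il22, a cytokine gene near Ifng, read 14.8 and 122.0, a difference of 2.73, and with normexp it was just under 2-fold. Hacd4, next to Ifnb1, differed by -1.71. Dnajc28, near Ifngr2, differed by -2.72, or -1.49 with normexp. The 4 neighbours of Tyk2 lay between -0.87 and -0.22, on the other side of 0 from Tyk2.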
